A study of Oreochromis niloticus with 21 samples.

Results

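Heart was compared with spleen in Oreochromis niloticus, the Nile tilapia, a fish of warm fresh water. The comparison used the 3 heart and the 3 spleen libraries of a series of 21 RNA-seq libraries, which covers 7 tissues with 1 library each at 28, 18 and 10 °C. Per the labels, the fish were 6 months old and had spent 12 h at their temperature, and the 28 °C libraries carry the same 12 h treatment note as the cold ones. The labels name no strain and do not give the number of fish behind a library, or whether the heart and the spleen of a temperature came from the same fish. Levels are RPKM, which scales reads by gene length and by a constant of each library, and differences are on the log2(RPKM + 1) scale. Of the 17098 gene IDs, 9819 had an RPKM of at least 1 in at least 3 of the 6 libraries and entered the test of heart against spleen. Comparisons with the other 5 tissues (brain, gill, kidney, liver and muscle) used the 15312 genes that reached that level in at least 3 of the 21 libraries.

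The heart is built mainly of cardiomyocytes, which contract without rest and are rich in sarcomere proteins and mitochondria. The fish spleen filters blood, stores and removes red cells, and holds lymphocytes and macrophages that take part in immune responses. Both organs contain much blood, so whole-organ RNA of either one includes RNA of blood cells and of vessel walls.

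Gene symbols were not at hand for any ID (0 of 17098 matched the RefSeq table used), so the tissue labels could not be checked with marker genes and no role is given for any ID. Reads on genes, recovered from the RPKM values, numbered 2353359, 1831800 and 646793 in heart at 28, 18 and 10 °C, and 778220, 693179 and 857734 in spleen. A gene of median length (2646 bp) at an RPKM of 1 had 5.26 to 19.3 reads in the 6 libraries. Heart at 18 °C stood apart from the other heart libraries. Its Spearman's rho was 0.761 with heart at 28 °C and 0.75 with heart at 10 °C, against 0.881 between those libraries. Within spleen the 3 values ran from 0.839 to 0.904. With 1 library per tissue and temperature, the 3 libraries of a tissue are not replicates, and p-values measure how alike a tissue difference was over the 3 temperatures.

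Heart lay closer to spleen than to any other tissue at each of the 3 temperatures. Spearman's rho between heart and spleen over 15312 genes was 0.664, 0.668 and 0.710 at 28, 18 and 10 °C. The next closest tissue was muscle at 28 °C with 0.639, gill at 18 °C with 0.553, and muscle at 10 °C with 0.620. The lead of spleen was therefore small at 28 °C (0.0244) and larger at 18 °C (0.115) and 10 °C (0.0900). The root mean squared log2 difference gave the same first place. It was 1.21, 1.33 and 1.13 between heart and spleen at 28, 18 and 10 °C, against 1.34, 1.45 and 1.30 for the next tissue. These are descriptions of single libraries across genes, which are not independent replicates, and the comparisons share the heart library of each temperature.

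The lead of spleen was not seen among genes that were on in both tissues. For genes with an RPKM of at least 1 in both libraries compared, rho with spleen was 0.550 at 28 °C, 0.475 at 18 °C and 0.50 at 10 °C. It was then below muscle at 28 °C (0.557), brain at 18 °C (0.545) and kidney at 10 °C (0.567). Gill at 18 °C (0.516) and muscle at 10 °C (0.520) were above spleen too. Genes with an RPKM of at least 1 in all 7 tissues, which numbered 3885, 3628 and 3496, gave the same picture. Over these genes heart had a rho with spleen of 0.648, 0.520 and 0.599, and a higher one with kidney at 28 °C (0.668), brain at 18 °C (0.681) and kidney at 10 °C (0.704). Gill at 18 °C (0.634) and muscle at 10 °C (0.639) were again above spleen. Leaving out the genes enriched in any of the 7 tissues, defined further on, put muscle (0.651) above spleen (0.641) at 28 °C over the remaining 13013 genes and kept spleen first at 18 and 10 °C (0.643 and 0.679). Centring each gene on the tissue mean also put muscle first at 28 °C, with a lead of spleen of -0.00918. Leaving out only the 108 genes enriched in heart, too few to move rho much, kept spleen first over 15204 genes, with rho of 0.674, 0.678 and 0.714.

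**Figure D1:**
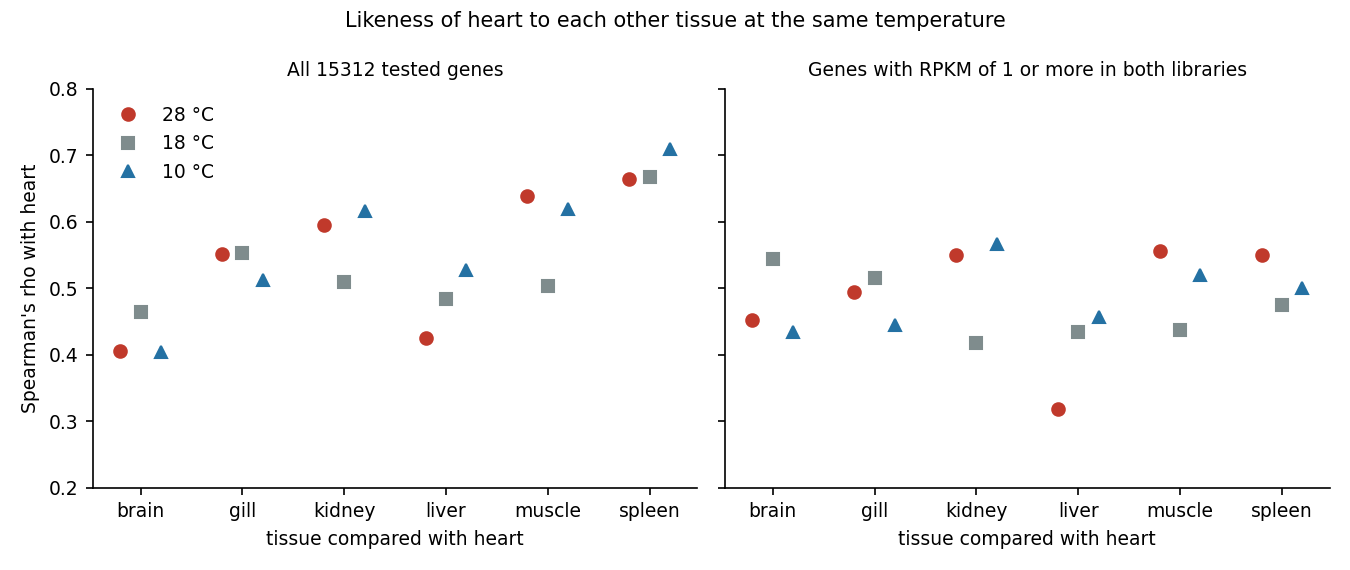
Spearman's rho between heart and each other tissue at the same temperature, over all 15312 genes on the left and over genes with an RPKM of at least 1 in both libraries on the right; each point is 1 pair of libraries. On the left spleen is highest at each temperature (0.664, 0.668 and 0.710), and on the right muscle, brain and kidney lead at 28, 18 and 10 °C (0.557, 0.545 and 0.567).

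Spleen was also first in how often it shared the on or off state of heart. Counting a gene as on at an RPKM of at least 1, heart and spleen had the same state in 76.0% of genes at 28 °C, 76.3% at 18 °C and 77.9% at 10 °C. Each of these shares was the highest of the 6 tissues. Kidney had 75.6%, 69.8% and 75%, muscle 75%, 68.9% and 73.3%, and gill 72.7%, 70.9% and 69.8%. At 28 °C, 7363 genes were on in both organs, 4271 off in both, 2141 on in heart alone of the pair and 1537 on in spleen alone. At 18 °C the 4 counts were 7056, 4630, 1779 and 1847, and at 10 °C they were 7124, 4800, 1756 and 1632. Genes on in 1 organ of the pair carried 58.0%, 51.4% and 45.1% of the summed squared log2 difference at 28, 18 and 10 °C. Spleen was not first in genes on in both. Kidney (7743) and gill (7620) had more at 28 °C, brain (7206) at 18 °C and kidney (7260) at 10 °C. Of genes on in heart or the other tissue at 28 °C, 67.5% were on in both for kidney and 66.7% for spleen. At 18 and 10 °C this share was highest for spleen, at 66.1% and 67.8%. The libraries differed in depth. A gene of median length at an RPKM of 1 had 6.75, 6.41 and 9.33 reads in spleen and 7.67, 5.31 and 19.5 in kidney. It had 11.9, 5.93 and 15.2 in gill and 5.71, 9.8 and 3.25 in brain. In muscle it had 2.55, 9.96 and 2.71, and in liver 2.8, 2.35 and 2.19. The part of depth in the order of the tissues, by state or by rho, was not tested.

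Over all 3 temperatures together, 5412 genes were on in all 6 libraries and 3205 were off in all 6. Both numbers were the highest for any tissue set beside heart, where the next were 5295 for kidney and 2812 for liver. On at every temperature in heart and off at every temperature in spleen were 483 genes. Here spleen was not lowest: kidney had 433 and muscle 440, with gill at 534, brain at 573 and liver at 932. On at every temperature in spleen and off at every temperature in heart were 263 genes. That was the fewest for any tissue set beside heart, where muscle had 377, liver 525 and brain 1568. Of the 3205 genes off in both organs, 1319 (41.2%) were on at all 3 temperatures in brain, 753 (23.5%) in gill, 664 (20.7%) in kidney, 420 (13.1%) in liver and 301 (9.39%) in muscle. Such genes entered the 15312 only through the other tissues, so that each is on in some other library by the filter. Of all 15312 genes, 51.9% were on at all 3 temperatures in brain, 50.9% in gill, 50.1% in kidney, 34.1% in liver and 38.2% in muscle.

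Spleen also had few genes of its own. A gene was called enriched in a tissue when its mean log2(RPKM + 1) there was at least 4-fold above the highest mean of the other 6 tissues. This gave 79 genes for spleen and 108 for heart, against 289 for kidney, 299 for gill, 372 for muscle, 421 for liver and 753 for brain. The spleen-enriched genes carried 3.03%, 4.0% and 3.8% of the squared distance between heart and spleen at 28, 18 and 10 °C, and the heart-enriched genes 11.9%, 10.5% and 8.82%. In the other 5 comparisons, the genes enriched in the partner tissue carried from 12.5% (kidney at 18 °C) to 32.6% (liver at 10 °C). The lists were drawn from these same libraries, so the shares are descriptions.

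In the test of heart against spleen with temperature as a block, 1098 of 9819 genes (11.2%) had an adjusted p under 0.05 (limma, Benjamini-Hochberg). Heart was higher in 738 (7.52%) and spleen in 360 (3.67%), with at least a 4-fold difference in 519 and 221 of them. In whole organs, a larger share of cells of a type and more RNA per cell cannot be told apart. The 3 heart libraries all lay above the 3 spleen libraries in 1660 genes (16.9%), and all below in 1355 (13.8%). The same test of heart against muscle gave 1155 of 9697 genes (11.9%), of which 542 (5.59%) were higher in heart and 613 (6.32%) in muscle. Against liver it gave 1950 of 9566 (20.4%), with 1119 (11.7%) higher in heart and 831 (8.69%) in liver. Against kidney it gave 2011 of 10375 (19.4%), with 766 (7.38%) and 1245 (12.0%). Against gill 2888 of 10675 (27.1%) were called, with 1332 (12.5%) and 1556 (14.6%), and against brain 3545 of 11278 (31.4%), with 1438 (12.8%) and 2107 (18.7%). Spleen and muscle had the lowest counts, and their order turned under 3 settings. Leaving out the 28 °C pair gave 1380 genes for spleen and 722 for muscle, length correction 1214 and 1103, and median-of-ratios scaling 1162 and 1082. The count for spleen fell to 485 without spleen at 10 °C and 555 without heart at 10 °C, and rose to 1738 without heart at 18 °C and 1682 without spleen at 18 °C. Where all 6 libraries had to reach an RPKM of 1, 151 of 5412 genes were called for spleen (109 higher in heart and 42 in spleen) and 129 of 3866 for liver (50 higher in heart and 79 in liver). That filter turned the balance for brain, gill and kidney as well. Brain had 450 higher in heart and 198 lower of 4852 genes, gill 500 and 235 of 5148, and kidney 142 and 115 of 5295.

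**Figure D2:**
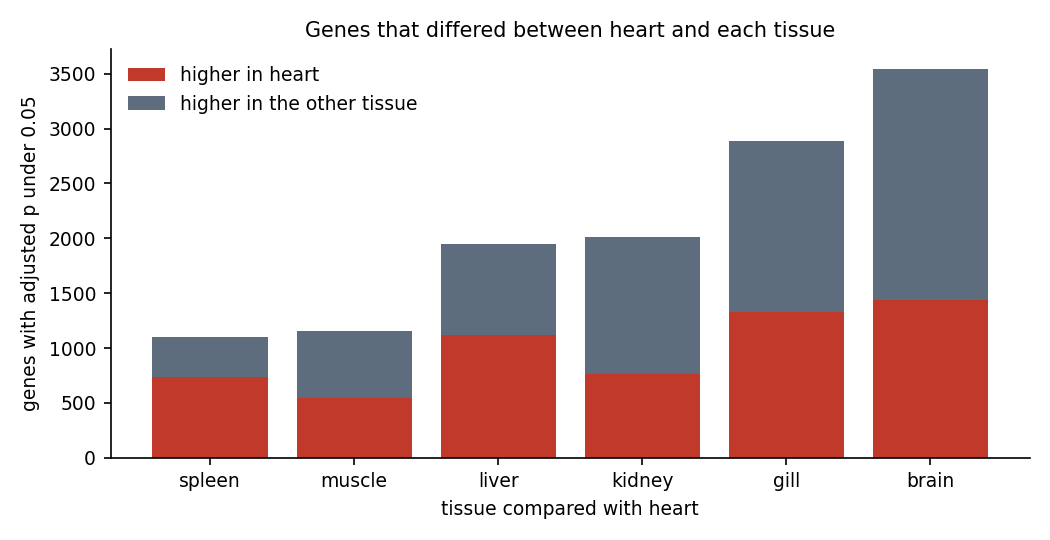
Number of genes with an adjusted p under 0.05 in the limma test of heart against each other tissue, split by the tissue with the higher level; each test used 3 libraries a side and the tests share the heart libraries. Spleen has 738 genes higher in heart and 360 higher in spleen, and brain has the most called genes, 3545.

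Genes higher in heart than in spleen were often high in muscle too. Among the other 5 tissues, muscle had the highest mean level for 335 of the 738 genes (45.4%), whereas it did for 1771 of all 9819 tested genes (18.0%). With the 10 °C libraries left out of the means, the figures were 318 (43.1%) and 1754 (17.9%). Heart was above all 5 other tissues in 356 of the 738 (48.2%), against 1802 of all tested (18.4%). Genes higher in spleen were mostly highest there: spleen was above the other 5 tissues in 254 of 360 (70.6%), against 2401 of all tested (24.5%). The 738 and 360 genes were picked for high levels in these same heart or spleen libraries. That choice by itself raises the shares of heart and of spleen above the other 5 tissues, so these shares are descriptions. Gill was the highest of the other 5 tissues for 111 of the 360 (30.8%; all tested, 24.9%), kidney for 72 (20%; all tested, 19.4%), brain for 72 (20%; 20.3%), liver for 60 (16.7%; 17.3%) and muscle for 45 (12.5%; 18.0%). Apart from gill and muscle, these shares were near those of all tested genes. This changed with the 10 °C libraries left out of the means. Gill was then highest for 93 (25.8%; all tested, 22.2%), kidney for 84 (23.3%; 18.6%) and brain for 69 (19.2%; 23.4%). Liver was highest for 70 (19.4%; 18.0%) and muscle for 44 (12.2%; 17.9%).

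The largest differences toward heart belonged to ENSONIG00000009288 and ENSONIG00000020926. ENSONIG00000009288 had an RPKM of 5141, 8050 and 5778 in heart at 28, 18 and 10 °C, and of 1.61, 0.564 and 116 in spleen. Every heart library was far above every spleen library, and spleen at 10 °C was far above the other spleen libraries, with 300 reads against 3 and 1. The difference was 9.63 (SE 1.20, limma adjusted p = 0.00136). This gene was higher still in muscle, at 16440, 38270 and 29220. ENSONIG00000020926 had an RPKM of 4221, 8198 and 3205 in heart and of 2.19, 0.384 and 66.3 in spleen. Its groups did not overlap either, and spleen at 10 °C again stood above the others, with 251 reads against 6 and 1. Its difference was 9.49 (SE 1.19, limma adjusted p = 0.00137). In muscle it was listed at 0 at 28 and 18 °C, and its RPKM there was 188.2 at 10 °C.

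The largest differences toward spleen belonged to genes that were higher still in liver. ENSONIG00000002124 had an RPKM of 509, 136 and 160 in spleen at 28, 18 and 10 °C, and of 0.609, 0.210 and 3.59 in heart, which rest on 5, 1 and 8 reads. All spleen libraries were above all heart libraries, and heart minus spleen was -6.75 (SE 0.67, limma adjusted p = 0.00077). Its RPKM in liver was 12270, 1193 and 1843, so that the spleen level was 4.15%, 11.4% and 8.67% of the liver level. ENSONIG00000016419 had an RPKM of 903, 211 and 304 in spleen and of 0.969, 0.478 and 15.8 in heart. Its groups did not overlap, and heart at 10 °C was the highest heart library, with 31 reads against 7 and 2. The difference was -6.73 (SE 0.84, limma adjusted p = 0.00136). Its spleen level was 15.1%, 10.6% and 10.5% of the liver level, which was 5979, 2001 and 2887 RPKM.

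Each of these 4 genes met the filter only with the libraries of the organ where it was high. Its p-value therefore adds no support to the difference beyond the levels given. These pairs of genes were like others at the top of each list. Among the 20 called genes with the largest difference toward heart, muscle was the highest of the other 5 tissues in 18, and 4 of these were higher in muscle than in heart. The means behind this count include muscle at 10 °C, and no count without the 10 °C libraries is given. ENSONIG00000020926, for example, was at 0 in muscle at 28 and 18 °C. Among the 20 with the largest difference toward spleen, liver was the highest of the other 5 tissues in 14, and all 14 were higher in liver than in spleen. Liver-enriched genes made up 27 of the 360 genes called higher in spleen (7.5%) and 10 of the 738 called higher in heart (1.36%). Of all 9819 tested genes they made up 136 (1.39%). Over the liver-enriched genes as a whole, the median levels in spleen and heart were low. Liver-enriched genes with an RPKM of at least 100 in liver (222 genes at 28 °C, 153 at 18 °C and 162 at 10 °C) had a median level in spleen of 0.0291%, 0.0351% and 0.0998% of the liver level, and in heart of 0.0419%, 0.0224% and 0.0462%. Of these genes, 57, 33 and 36 were at 1% or more of the liver level in spleen. In heart the numbers were 30, 31 and 26. The 421 liver-enriched genes took 2.61%, 1.13% and 1.90% of the spleen reads and 0.962%, 1.20% and 0.80% of the heart reads. The part of liver RNA in these differences was not tested.

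**Figure D3:**
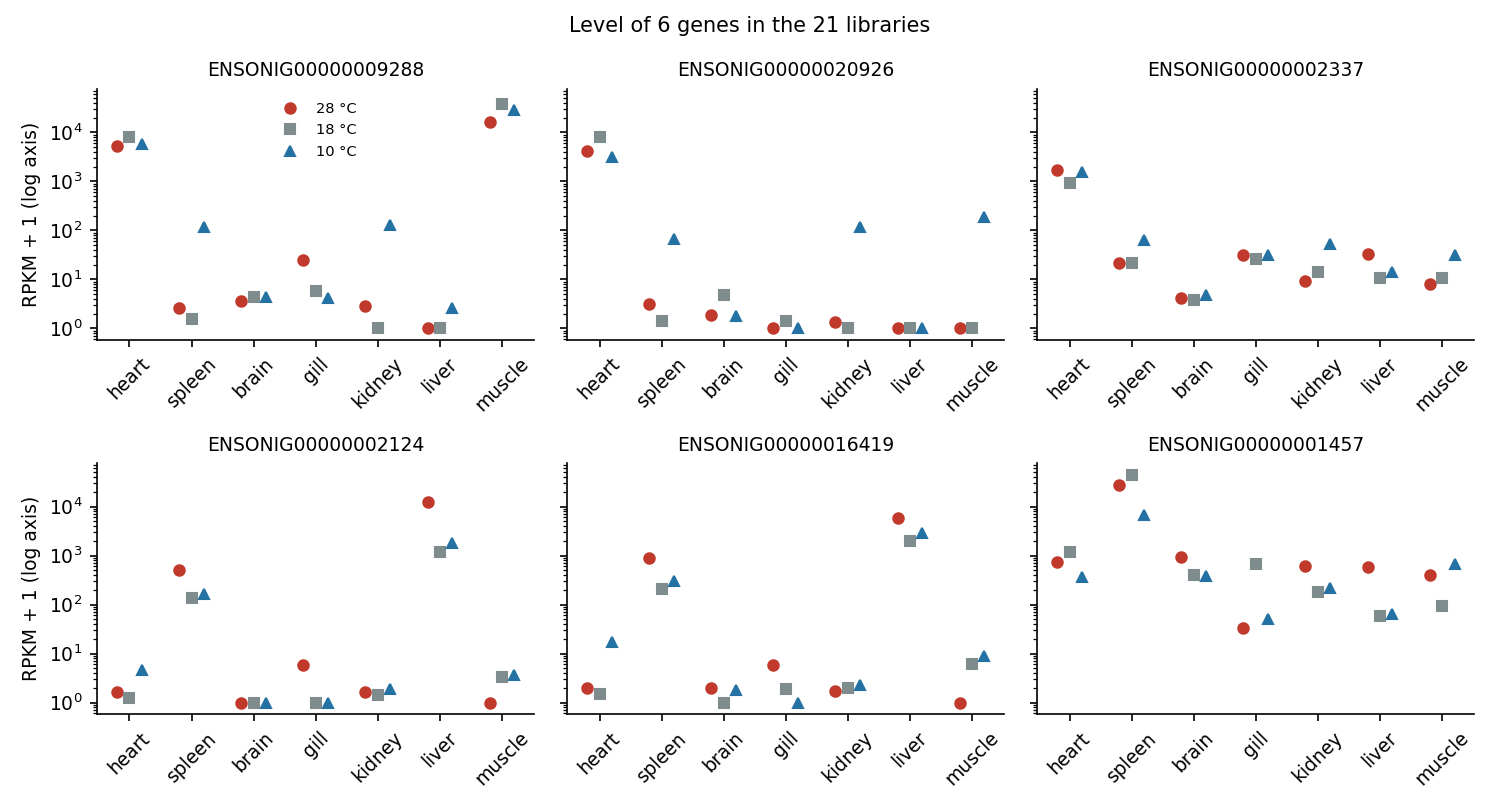
RPKM + 1 on a log axis for 6 genes in the 21 libraries, by tissue, with colour and shape giving the temperature; the upper 3 are higher in heart than in spleen and the lower 3 higher in spleen. ENSONIG00000009288 peaks in muscle, ENSONIG00000002124 and ENSONIG00000016419 peak in liver, and ENSONIG00000020926 is low in spleen, kidney and muscle at 28 and 18 °C but not at 10 °C.

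The gene with the most reads in each library was another measure of how the organs differ. In spleen it was ENSONIG00000001457 at every temperature, which took 6.98%, 11.9% and 2.07% of reads at 28, 18 and 10 °C. Its RPKM was 28170, 44880 and 6654 in spleen and 748, 1166 and 370 in heart. Spleen was higher at each temperature, and its lowest library, at 10 °C, was still above every heart library. The difference was -4.89 (SE 1.37, limma adjusted p = 0.0490), and it passed the threshold under 10 of 21 alternative settings, with an adjusted p of up to 0.774. By RPKM this gene led spleen at 28 and 18 °C only, and another gene led at 10 °C, at 19270.

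By reads, heart had a different leading gene at each temperature. By RPKM, ENSONIG00000018018 led heart at both 28 °C (6382) and 18 °C (10290), and ENSONIG00000009288 led it at 10 °C (5778). The genes that led by reads were as follows. At 28 °C it was ENSONIG00000002337 with 4.38% of reads, and its RPKM was 1677, 918 and 1515 in heart at 28, 18 and 10 °C and 20.8, 20.9 and 62.9 in spleen. No heart library overlapped a spleen library, and the difference was 5.41 (SE 0.78, limma adjusted p = 0.00288). At 18 °C it was ENSONIG00000018018 with 2.56% of reads, and its RPKM was 6382, 10290 and 5486 in heart and 9.83, 4.60 and 111 in spleen. Here too the groups were apart, by 8.55 (SE 1.1, limma adjusted p = 0.00155), and spleen was highest at 10 °C. At 10 °C it was ENSONIG00000002856 with 6.31% of reads. Its RPKM was 480, 8.02 and 5584 in heart and 2.56, 2.47 and 311 in spleen, so that spleen at 10 °C lay above heart at 18 °C and the groups overlapped. The difference was 4.21 (SE 0.97, limma adjusted p = 0.0231), it passed the threshold under 18 of 21 alternative settings with an adjusted p of up to 0.294, and the gene's RPKM in muscle reached 268800 at 10 °C.

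At each temperature taken alone, with 1 library a side and no test, heart was at least 4-fold higher in 693 genes (7.06%) at 28 °C, 1018 (10.4%) at 18 °C and 662 (6.74%) at 10 °C. Spleen was at least 4-fold higher in 465 (4.74%), 551 (5.61%) and 492 (5.01%). The 18 °C pair had the most differences in both directions. Heart was at least 4-fold higher at all 3 temperatures in 273 genes (2.78%) and spleen in 77 (0.784%). The median difference over all 9819 genes was 0.06 at 28 °C, 0.09 at 18 °C and -0.17 at 10 °C. At 2-fold the balance at 10 °C was the reverse, with 1724 genes higher in heart and 2075 higher in spleen. Median-of-ratios scaling moved the median at 10 °C to -0.05. It moved the 4-fold counts at 10 °C from 662 and 492 to 729 higher in heart and 417 higher in spleen. The 2-fold counts were not computed with this scaling.

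The differences at 28 and 18 °C were the least alike. The log2 differences of the 9819 genes had a Pearson's r of 0.364 between 28 and 18 °C, with the same sign in 51.9% of genes. Between 28 and 10 °C r was 0.671 with the same sign in 65.8%, and between 18 and 10 °C it was 0.625 with 68.0%. Heart was higher at all 3 temperatures in 2198 genes and spleen in 2016, and the other genes changed direction or were equal at some temperature. Crossed pairs of libraries did not follow temperature either. The highest rho of any heart library with any spleen library was 0.743, between heart at 18 °C and spleen at 28 °C, and heart at 28 °C was closer to spleen at 10 °C (0.712) than to spleen at 28 °C (0.664).

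Gene length moved with this disagreement. The genes were divided by length into 4 equal groups. In the shortest group (up to 1510 bp) the median difference of heart minus spleen was -0.21 at 28 °C, 0.63 at 18 °C and -0.18 at 10 °C. In the longest group (from 4066 bp) it was 0.27, -0.40 and -0.19. Short genes were thus relatively high in heart at 18 °C, the reverse of 28 °C, and at 10 °C length made little difference. The deviation of a library from its tissue mean had a Spearman's rho with length of -0.347 in heart at 18 °C and -0.225 in spleen at 28 °C, and of 0.133 to 0.297 in the other 4 libraries. With a correction for gene length, spleen was still closest to heart at each temperature, with rho of 0.662, 0.663 and 0.713, and 1214 genes were called (803 higher in heart and 411 in spleen). The part of RNA quality or library preparation in the length pattern was not tested.

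**Figure D4:**
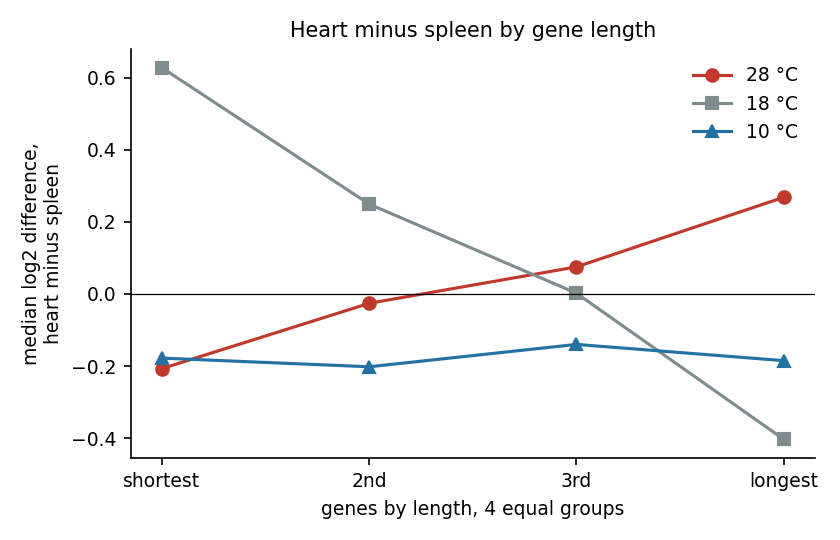
Median log2 difference of heart minus spleen in 4 equal groups of the 9819 genes by gene length, with 1 line per temperature. The 18 °C line falls from 0.63 in the shortest group to -0.40 in the longest, the 28 °C line rises from -0.21 to 0.27, and the 10 °C line stays between -0.20 and -0.14.

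Genes enriched in heart, with a high level there, mostly lay near 2% of their heart level in spleen at 10 °C. Among heart-enriched genes with an RPKM of at least 100 in the heart library, the level in spleen as a percentage of the level in heart had a median of 0.246% at 28 °C (interquartile range 0.00513% to 1.74%, 32 genes). It was 0.462% at 18 °C (0.0194% to 2.37%, 34 genes) and 2.08% at 10 °C (1.83% to 2.91%, 32 genes). At 28 °C 13 of the 32 genes were below 0.1% and at 18 °C 15 of the 34, but none of the 32 at 10 °C, where each was at 1% or more. Across these genes, Pearson's r between the log2 levels in heart and spleen was 0.0387 at 28 °C, -0.0422 at 18 °C and 0.855 at 10 °C. Of 21 genes with an RPKM of at least 100 in heart at every temperature, 19 had a higher percentage at 10 °C than at both other temperatures. Over the 21 genes the percentage ran from 1.07% to 11.8% at 10 °C, from 0% to 40.0% at 28 °C and from 0% to 9.58% at 18 °C. With a heart RPKM of at least 20 in place of 100, the median was 1.16% at 28 °C (0.0723% to 6.47%, 75 genes). It was 0.841% at 18 °C (0.0317% to 3.22%, 65 genes) and 2.81% at 10 °C (2.04% to 6.4%, 74 genes). The contrast with 10 °C was thus smaller, and the interquartile range at 10 °C was wider.

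Raised levels at 10 °C were also seen in kidney and, with a wider spread, in muscle. The median level of the 32 genes at 10 °C was 2.73% of the heart level in kidney (2.14% to 3.28%) and 5.98% in muscle (2.87% to 9.54%), with 30 and 28 of the 32 genes at 1% or more, but 0.0713% in brain, 0.211% in gill and 0% in liver. When the list was drawn from the 28 and 18 °C libraries alone, the median in spleen at 10 °C was 2.07% (1.82% to 2.78%, 31 genes). All 108 heart-enriched genes together took 0.504% of spleen reads at 28 °C (exact 95% binomial interval 0.489% to 0.520%), 0.345% at 18 °C (0.332% to 0.359%) and 0.919% at 10 °C (0.899% to 0.939%). In heart they took 22.0%, 17.7% and 21.5%. In the reverse direction, spleen-enriched genes with an RPKM of at least 100 in spleen had a median level in heart of 12.1% of the spleen level at 28 °C (interquartile range 3.25% to 17.8%, 15 genes). It was 2.6% at 18 °C (1.49% to 6.29%, 11 genes) and 7.32% at 10 °C (6.22% to 9.15%, 14 genes), so the spread was again narrowest at 10 °C. Pearson's r between the log2 levels was 0.811, 0.918 and 0.978 at 28, 18 and 10 °C. High shares and high r were not particular to heart. At 10 °C the same genes had a median of 9.52% in brain (6.79% to 14.8%) and of 1.63% to 3.98% in gill, kidney, liver and muscle. There r was 0.843 to 0.952 in the tissues other than heart. The median in kidney was 12.5% at 28 °C, and r at 18 °C was 0.955 in brain and 0.947 in gill. Whether heart RNA reached the other libraries, or the genes were on in those organs, was not tested.

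**Figure D5:**
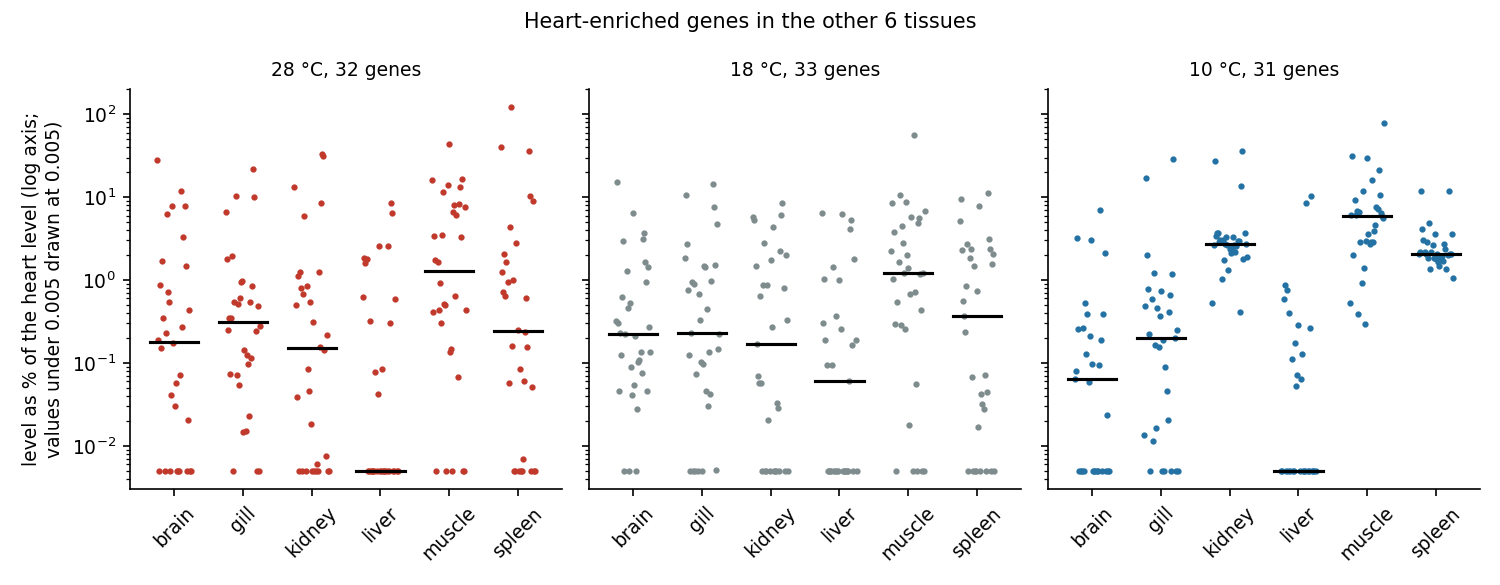
Level of heart-enriched genes (list from the 28 and 18 °C libraries, heart RPKM of at least 100) in each other tissue as a percentage of the heart level at the same temperature, on a log axis; each point is 1 gene and the bar is the median. At 10 °C the points for spleen gather around 2.07%, those for kidney around 2.73% and those for muscle around 5.87%, whereas at 28 and 18 °C they are spread over several powers of 10.

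The largest differences themselves were smaller at 10 °C. For 71 genes that were at least 16-fold higher in heart at both 28 and 18 °C, the median difference was 5.99 at 28 °C, 5.86 at 18 °C and 4.90 at 10 °C, and 57 of the 71 had their smallest difference at 10 °C. For 38 genes at least 8-fold higher in spleen at both 28 and 18 °C, the medians were -5.18, -4.33 and -3.79, and 26 had their smallest difference at 10 °C. These genes were picked on their 28 and 18 °C values, which favours a smaller value in the third library. The heart-enriched genes made little difference to rho at 10 °C, which was 0.710 with them and 0.714 without. They are only 108 of 15312 genes, too few to move a rank correlation much. The part of the raised levels at 10 °C in the closeness of heart and spleen was not tested.

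Genes that heart and spleen shared against the other 5 tissues were tested next, over all 21 libraries. The mean of heart and spleen differed from the mean of the other 5 tissues in 5538 of 15312 genes (36.2%; limma adjusted p under 0.05). It was higher in 2143 (14.0%) and lower in 3395 (22.2%). Genes that are off in both organs enter this test only through the other tissues, which bears on the lower calls. A high level in 1 other tissue is enough to make such a call. Few genes met a stricter rule. In 72 genes (0.470%) heart and spleen were both above each other tissue at each temperature, and in 12 (0.0784%) both were below. The same count for heart with muscle was 249 above and 17 below, with brain 126 and 8, with kidney 68 and 2, with gill 50 and 3, and with liver 24 and 17. Where all 7 libraries of a temperature had to reach an RPKM of 1, 716 of 5056 genes were called and the balance turned, to 531 higher and 185 lower. Without the 18 °C libraries 3638 genes were called.

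Among the genes called higher in heart and spleen together, ENSONIG00000006060 was led by heart. Its RPKM was 223, 260.5 and 236.5 in heart at 28, 18 and 10 °C, and 9.74, 4.77 and 11.6 in spleen. The highest value in the other 5 tissues was 7.12, in kidney at 10 °C, which lay above spleen at 18 °C. Heart and spleen together were 4.32 higher (SE 0.25, limma adjusted p = 1.55e-08). ENSONIG00000000066 had an RPKM of 86.3, 24.1 and 547 in heart and 0.999, 5.08 and 11.2 in spleen, with at most 2.90 elsewhere. It differed by 4.13 (SE 0.40, limma adjusted p = 1.7e-06). In both genes the spleen level was a part of the heart level, and the heart libraries were the highest. Both were also higher in heart than in spleen. The differences were 4.71 (SE 0.61, limma adjusted p = 0.00161) and 4.33 (SE 0.74, limma adjusted p = 0.00623). For ENSONIG00000000066, spleen at 28 °C rested on 6 reads. That gene met the filter for heart against spleen only with heart libraries, so its p-value in that test adds no support beyond the levels. The calls against the other 5 tissues were thus carried mainly by heart and do not show a level shared by the 2 organs.

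Genes low in both organs were near the limit of detection there. The called genes named here passed the filter mainly or only through the other tissues, so their values are given without the test. ENSONIG00000014971 had 6, 1 and 0 reads in heart and 2, 0 and 1 in spleen, while its RPKM in liver was 25.6, 65.7 and 53.0. ENSONIG00000008282 had 0, 1 and 1 reads in heart and 1, 6 and 2 in spleen, and an RPKM of 12.1, 19.2 and 26.4 in liver. Its RPKM was between 1.73 and 6.40 in the brain, gill, kidney and muscle libraries, so it was on in every tissue but heart and, at 28 and 10 °C, spleen.

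The genes whose difference at 18 °C departed most from the mean of 28 and 10 °C were read from single libraries, with no test. ENSONIG00000012250 had an RPKM of 7.68, 330.0 and 5.52 in heart at 28, 18 and 10 °C and 51.0, 3.39 and 3.89 in spleen, a departure of 7.32 on the log2 scale. ENSONIG00000012251 had 6.38, 169.6 and 1.51 in heart and 10.6, 1.24 and 2.56 in spleen, a departure of 6.83. Heart at 18 °C alone was high for both, and spleen at 28 °C was the highest spleen library. In the other direction ENSONIG00000021883 had 1133, 132 and 590 in heart and 151, 2085 and 719 in spleen, a departure of -5.27. ENSONIG00000019130 had 67.3, 2.30 and 51.7 in heart and 116, 80.8 and 29.8 in spleen, a departure of -4.63. Heart at 18 °C was the lowest heart library for both of these genes.

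The change with temperature differed between heart and spleen in 3 of 15312 genes (0.0196%; limma, difference of linear slopes, adjusted p under 0.05). At an unadjusted p under 0.05 there were 538. The fit used all 21 libraries with 7 residual degrees of freedom, and with the correction for gene length it called no gene (smallest adjusted p 0.261, 503 genes at an unadjusted p under 0.05).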

How the data were processed

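Per the labels, total RNA was taken from flash-frozen tissue with Trizol and libraries were made with the Illumina TruSeq kit. The deposited RPKM values were made by the authors. Per the submitters' processing notes, the tools included TopHat, Bowtie and HTSeq, with no version or role; the genome build is not given in the sources used here. Since an RPKM is a read count over gene length and a library constant, the counts could be solved from the values. For 17091 of 17094 detected genes, 100% of values came out as whole reads, within 1e-06. Recovered reads ran from 248860 to 3560372 over the series and gave depth and lengths. Because PCR duplicates could not be recognised, intervals cover counting error only.

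Differences were tested on log2(RPKM + 1) with limma 3.58.1 (R 4.3.3) and its intensity trend. On this scale the change of low genes is understated. The filter was an RPKM of 1 in at least 3 libraries. Heart against each tissue used 3 libraries a side with temperature as a block, two-sided tests and Benjamini-Hochberg adjustment at 0.05 over all genes tested. Samples are paired by the labelled temperature, with no statement that a pair came from the same fish. The fit and the recovery of reads were tested on simulated data. Counts, shares and correlations were computed with Python 3.11.15, pandas 2.3.3 and scipy 1.17.1.

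At most 2 IDs a direction were named per comparison: those with the largest fitted difference among called genes whose libraries did not overlap (for heart and spleen against the rest, within each temperature), the largest departures at 18 °C, all called slopes, and the leading gene of each library. The 20 called genes with the largest difference in each direction, and the muscle and liver counts for them, were chosen after their values were seen. The marker lists, given by symbol, had no use here. The members, lists and tests were chosen with earlier results of these data known. Alternatives covered scaling, filters, pseudocount, limma-voom on the recovered reads, array weights, length correction, no block and leaving out libraries.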

Additional observations from a re-analysis of the deposited data

Results flagged for a closer look

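The slope with cooling differed between heart and spleen in 3 genes (limma over 15312 genes). Slopes are fitted log2 changes from 28 to 10 °C, and differences are heart minus spleen. A negative value thus means a larger fall, or a smaller rise, with cooling in heart. ENSONIG00000014556 had 2, 0 and 1 reads in heart at 28, 18 and 10 °C and 53, 8 and 2 in spleen, with the fewest spleen reads at 10 °C, and its difference in slope was 3.92 (SE 0.51, limma adjusted p = 0.0432). ENSONIG00000002616 had 93, 9 and 0 reads in heart and 0, 2 and 5 in spleen, and its difference was -3.26 (SE 0.39, limma adjusted p = 0.0315). ENSONIG00000002868 had 10, 1 and 0 reads in heart and 2, 5 and 15 in spleen, and its difference was -2.87 (SE 0.32, limma adjusted p = 0.0315). The call of ENSONIG00000014556 held under 3 of 4 alternative settings, that of ENSONIG00000002616 under 2 of 4, and that of ENSONIG00000002868 under 3 of 4. All 3 rest on few reads in at least 1 organ. The fit took its residual spread from all 21 libraries. ENSONIG00000002868 was listed at 0 in every liver and muscle library, and ENSONIG00000014556 in every brain and liver library. These p-values thus do not measure the spread of heart and spleen alone.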

How the results depend on the processing

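The count of 1098 genes for heart against spleen ran from 485 to 1738 when 1 library or 1 pair was left out. It was 1712 without the 18 °C pair, 505 without the 10 °C pair, 555 without heart at 10 °C and 1682 without spleen at 18 °C. Filters changed the number of genes tested as well. With no filter on low values 613 of 16103 were called, a smaller share than 1098 of 9819. An RPKM of 1 in all 6 libraries gave 151 of 5412, also a smaller share. An RPKM of 5 in 3 libraries gave 628 of 3551, a larger share. Over the same 9819 genes, a fit on all 21 libraries called 1666. Array weights called 4996 of them (2219 higher in heart and 2777 higher in spleen). Without the block for temperature, that is with no paired analysis, 1288 genes were called. Heart and spleen libraries of the same temperature did not deviate together from their tissue means throughout: r across genes was -0.296 at 28 °C, -0.136 at 18 °C and 0.357 at 10 °C. With an RPKM of 1 in all 6 libraries, heart against brain gave 648 of 4852 genes and gill 735 of 5148. Kidney gave 257 of 5295, liver 129 of 3866 and muscle 256 of 4494. The balance of directions turned in all of these but muscle. Leaving out a temperature gave 1566 to 3156 genes for kidney, 1178 to 2234 for liver and 722 to 1844 for muscle. Length correction turned the liver split to 835 higher in heart and 961 lower, from 1119 and 831, and the muscle split to 401 and 702, from 542 and 613; the muscle split was 641 and 540 without the 10 °C pair and 927 and 917 without the 18 °C pair. For heart and spleen against the other 5 tissues, an RPKM of 1 in all 7 libraries gave 716 of 5056 genes (531 higher, 185 lower). Leaving out a temperature gave 3638 to 4120 of 15312. The slope test called 0 genes with length correction, 5 without heart at 18 °C, the only library left out there, and 3 with a pseudocount of 5 or median-of-ratios scaling.

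The lead of spleen over the next tissue in rho (0.0244, 0.115 and 0.0900 at 28, 18 and 10 °C) turned to -0.0204, -0.161 and -0.105 with an RPKM of 1 in all 7 libraries, to -0.0247, -0.132 and -0.127 with 20 reads in all 7, and to -0.00712, -0.0699 and -0.0667 with an RPKM of 1 in both libraries, a setting chosen after seeing the data. Centring on the tissue mean gave -0.00918, 0.0350 and 0.0372, and leaving out tissue-enriched genes gave -0.0102 at 28 °C. The lead in root mean squared difference was 0.128 at 28 °C and 0.171 at 10 °C. The 4-fold counts of 1158, 1569, 1154 and 350 (28, 18, 10 °C and all 3) became 368, 553, 336 and 130 with a pseudocount of 5, and 3532, 4542, 3799 and 1107 at 2-fold, where spleen led at 10 °C (1724 higher in heart, 2075 in spleen). The share of squared distance from heart- and spleen-enriched genes was 15%, 14.5% and 12.6%, and 9.44%, 9.06% and 7.02% with 8-fold lists. The cause of these shifts was not tested, except that stricter filters test fewer genes. Of 224 recomputed calls of named genes, 206 passed the threshold and 18 did not. These include 12 passing calls each of ENSONIG00000014971 and ENSONIG00000008282, whose test is not given above. The genes with the largest differences between heart and spleen were not tested with an RPKM of 1 in all 6 libraries. Many named genes were picked for extreme differences, so the count of passes does not measure how stable calls are in general. The heart-enriched medians in spleen moved to 1.16%, 0.841% and 2.81% with a heart RPKM of 20, chosen after seeing the data. In spleen a gene of median length had 6.41 to 9.33 reads at an RPKM of 1, so the state of low genes is uncertain.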
